A study of Emberiza melanocephala with 12 samples.

Results

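Liver transcripts of blackheaded buntings in the migratory (M) state were compared with those of birds in the non-migratory (nM) state at the first 3 sampling times of the day, ZT1, ZT5 and ZT9 (hours after lights on), all in the light. The comparison used 3 M birds and 3 nM birds, 1 bird per state and time, which are 6 of the 12 liver libraries of the series. The birds were placed in states and times by their labels. All were adult males caught from a wintering flock and caged singly on long days when their livers were taken. The M birds were photosensitive birds moved from short days to long days and kept there until each had shown nights of Zugunruhe, the nocturnal restlessness of caged migrants. The nM birds had been on long days for many weeks, had become photorefractory and stayed on long days. The photosensitive history on short days and the photorefractory history on long days therefore differ between the states along with migratory behaviour, and these cannot be told apart. Because each time of day was a different bird, time of day and bird cannot be told apart either. Per-sample values below are FPKM in the order ZT1, ZT5 and ZT9, and a difference is the mean log2(FPKM + 1) of the M birds minus that of the nM birds.

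The liver of a migratory songbird takes up and makes fatty acids, exports triglyceride to adipose tissue and flight muscle, keeps blood glucose steady between meals, and makes bile acids and most plasma proteins. Before migration long days bring overeating and fattening, and after the breeding season birds become photorefractory, lean and quiet at night. Pituitary and thyroid hormones, insulin and the circadian clock all act on hepatic transcription, so genes of these pathways, of lipid, glucose and bile acid metabolism, and of the protein and RNA machinery were followed here.

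The 6 libraries did not sort by state along their main axis. The first principal component of log2(FPKM + 1) over the 9960 genes tested held 44.1% of the variance and the second 19.1%. M ZT5, M ZT9 and nM ZT5 lay on one side of the first component, and M ZT1, nM ZT1 and nM ZT9 on the other. The rank correlation of M ZT5 was 0.957 with M ZT9 and 0.939 with nM ZT5, and it was 0.87 with nM ZT1, the lowest of all pairs. M ZT1 correlated at 0.925 and 0.941 with the other M libraries and at 0.931 to 0.942 with the nM libraries. On the line from the other state to its own (0 to 1, over all genes tested, against the mean of the remaining libraries), M ZT1 stood at 0.307 and nM ZT5 at 0.156, and the other 4 libraries stood between 0.624 and 0.911. M ZT1 and nM ZT5 thus lay nearer to the opposite state, so the counts of calls, the main named genes and the list medians that turn are also given without these 2 libraries. They were singled out by their values, and the fit without them is a description.

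**Figure D1:**
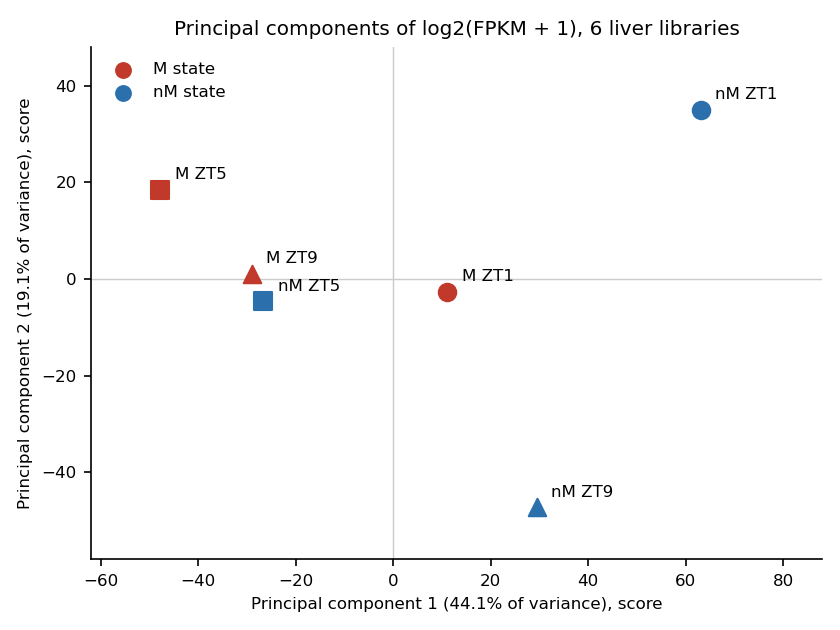
Scores of the 6 liver libraries on the first principal component (x axis) and the second (y axis) of log2(FPKM + 1), M in red and nM in blue, with circles for ZT1, squares for ZT5 and triangles for ZT9. M ZT1 lies among nM libraries on the first component and nM ZT5 among M libraries.

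All 6 libraries showed liver transcripts. APOB, the structural protein of lipoproteins, was at 942, 412 and 476 FPKM in M birds and at 704, 361 and 374 FPKM in nM birds. ALB, serum albumin, was listed at 0 in all 3 M libraries and in nM ZT5, and at 24971 and 39835 FPKM in nM ZT1 and nM ZT9. In FPKM files a listed 0 can be a failed estimate, and no fold is given for ALB. Other hepatocyte markers were uneven among the nM birds. FGB and FGG were at 26712 and 42162 FPKM in nM ZT1, against 2881 to 5833 and 3921 to 7056 FPKM in the other libraries. AHSG was at 25148 FPKM in nM ZT9, against 2417 to 7420 FPKM in the others. With APOB and ALB these markers summed to 13721 to 19997 FPKM in M birds and 17718 to 101490 FPKM in nM birds. In 391 of the genes tested at least 1 of the 6 libraries was listed at 0. The summed FPKM of the 6 libraries ranged from 1542831 to 2793013. Of 5 leukocyte markers 1 lay higher without overlap, and they summed to 90.2 to 152 FPKM in M birds and 70.7 to 191 FPKM in nM birds. Of 7 stellate and fibroblast markers, 6 of them tested, 2 lay lower, with sums of 169 to 326 FPKM in M birds and 301 to 461 FPKM in nM birds. Of 4 endothelial markers 1 lay lower, with sums of 22.5 to 35.9 FPKM in M birds and 37.4 to 49.0 FPKM in nM birds that did not overlap. EPB42, the only red cell marker measured, lay higher, with 2.24, 2.35 and 1.92 FPKM in M birds and 1.02, 0.783 and 1.37 FPKM in nM birds. Over all genes tested 4.82% lay higher and 8.05% lower without overlap, and with so few markers no excess is read from these counts. The part of these cells in the results was not tested. Fewer cells of a type and less RNA per cell cannot be told apart in such bulk samples.

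One gene passed the test. TTR-1 (ENSTGUG00000010708) is named for transthyretin, which carries thyroid hormone and the retinol-binding protein in plasma. TTR-1 was at 29.7, 46.1 and 84.1 FPKM in M birds and at 15319, 10148 and 39552 FPKM in nM birds. The gap between the states was far wider than the spread within either, and M ZT1 and nM ZT5 stood with their own states. The mean of TTR-1 was 53.3 ± 27.9 FPKM in M birds and 21673 ± 15698 FPKM in nM birds (SD, n = 3 each), 407 times lower in the M birds, a difference of -8.53 (standard error 0.57) with an adjusted p = 0.00527 from limma. Without M ZT1 and nM ZT5 the difference was -8.60 with an adjusted p = 0.0582 in the same test. With a pseudocount (the value added to FPKM) of 0.1 in place of 1, limma called no gene without these libraries, so the TTR-1 call was lost there. With any single library left out the adjusted p lay between 0.00947 and 0.0797. The call was lost with no filter on low values (adjusted p = 0.1), with ordinary regression (0.45) and without 3 other pairs of libraries (0.142 to 0.268). TTR-1 had the same direction in each of these fits, which its states without overlap fix in advance. The symbol carries a suffix, and whether other entries of transthyretin exist was not tested. TTR-1 was listed above 0 in all 12 libraries, but whether its FPKM was affected by a failed estimate, as may be so for ALB, was not tested. Retinol-binding protein RBP4, its partner in plasma, was at 20556, 53770.2 and 33293 FPKM in M birds and at 26646, 35239.8 and 34781 FPKM in nM birds, with overlapping states.

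Over all 9960 genes tested, 1 was called (0.01%) at an FDR below 0.1, and it was lower in the M state (0.01% lower, 0% higher). Limma gave 714 genes (7.17%) an unadjusted p under 0.05, 251 higher (2.52%) and 463 lower (4.65%) in the M state. Ordinary regression without moderation called 0 genes. In 1282 genes (12.9%) all 3 M birds lay above or all 3 lay below all 3 nM birds, 480 higher (4.82%) and 802 lower (8.05%). An exact permutation test of 3 against 3 birds cannot go below p = 0.1, which each of these genes reached. The balance of directions rested on the scale. With the libraries set to equal medians, 682 genes were higher without overlap in M birds and 670 were lower, and with equal totals 647 and 272. The median difference of all genes tested was -0.05 as deposited, 0.03 with equal medians and 0.10 with equal totals.

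The genes named next had states that did not overlap, but apart from TTR-1 they did not pass the FDR, and their values are given as a description. They are the 12 genes with a symbol in each direction with the smallest unadjusted p among those without overlap. Adjusted p-values from limma ran from 0.135 to 0.606 in the 12 higher genes, and from 0.391 to 0.558 in the 11 lower genes beside TTR-1. Of these genes 5 of the higher and 6 of the lower carry a symbol from the study's list of state differences, which was made from these same libraries together with those of ZT13 to ZT21, so their direction is not independent evidence.

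Among the genes higher in the M state, CCDC177, of a coiled-coil protein, had 4.35, 6.02 and 8.57 FPKM in M birds and 0.295, 0.171 and 0.298 FPKM in nM birds (difference 2.50, standard error 0.30, adjusted p = 0.135 from limma). PPARG, the nuclear receptor that drives fat storage, had 16.9, 18.8 and 6.90 FPKM in M birds and 0.799, 3.47 and 2.64 FPKM in nM birds (difference 2.19, standard error 0.48). Its lowest M bird, at ZT9, was still above its highest nM bird, at ZT5. SLC16A6, a monocarboxylate transporter that exports ketone bodies from the liver in zebrafish, had 20.96, 21.5 and 23.6 FPKM in M birds and 5.14, 2.32 and 6.47 FPKM in nM birds (difference 2.11, standard error 0.35). TSC22D3, the glucocorticoid-induced leucine zipper, was the most abundant of the 12, with 400.0, 407 and 377 FPKM in M birds and 83.5, 175 and 109.5 FPKM in nM birds (difference 1.75, standard error 0.33). Its M birds varied by less than its nM birds, with SDs of 15.6 and 47.0 FPKM.

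WEE1, a kinase that holds back entry into mitosis and follows the clock in mouse liver, had 8.85, 7.78 and 9.28 FPKM in M birds and 1.92, 2.66 and 2.28 FPKM in nM birds (difference 1.56, standard error 0.26). TMPRSS6, a hepatocyte protease that restrains hepcidin and so favours iron uptake, had 83.4, 136 and 153 FPKM in M birds and 25.6, 66.1 and 29.5 FPKM in nM birds (difference 1.68, standard error 0.43). In TMPRSS6 nM ZT5 was the highest nM bird and M ZT1 the lowest M bird. HAND2, a transcription factor of mesenchymal cells, had 18.1, 11.7 and 14.6 FPKM in M birds and 3.14, 7.78 and 3.71 FPKM in nM birds (difference 1.49, standard error 0.36). HTRA1, a secreted serine protease, had 59.2, 37.6 and 56.4 FPKM in M birds and 24.9, 20.7 and 23.8 FPKM in nM birds (difference 1.09, standard error 0.29). SYNE2-1 of the nuclear envelope, ARL6IP4 and TM7SF4, of a transmembrane protein of dendritic cells and osteoclasts, were also higher, with differences of 1.54, 1.23 and 1.04.

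Among the genes lower in the M state, CYP7B1, the oxysterol hydroxylase of the alternative bile acid pathway, had 34.4, 14.2 and 30.9 FPKM in M birds and 127, 81.7 and 110.0 FPKM in nM birds (difference -2.03, standard error 0.39). PANK3, a pantothenate kinase that starts coenzyme A synthesis, had 4.26, 2.16 and 4.25 FPKM in M birds and 15.9, 21.1 and 12.0 FPKM in nM birds (difference -1.93, standard error 0.34). In both of these genes of metabolism M ZT5 was the lowest of the 6 libraries. Among the 12 lower genes, TBC1D9, of a family of Rab regulators, had the next largest difference after TTR-1 and PLA2G1B. It had 1.66, 3.55 and 7.25 FPKM in M birds and 124.8, 42.6 and 38.8 FPKM in nM birds (difference -3.70, standard error 0.57, adjusted p = 0.391 from limma). A gene without a symbol, ENSTGUG00000012313 (named after its values were seen), lay further apart than PLA2G1B and TBC1D9. It had 8.22, 7.29 and 27.4 FPKM in M birds and 229, 429 and 684.5 FPKM in nM birds (difference -4.98, adjusted p = 0.135 from limma). Without M ZT1 and nM ZT5 its difference was -4.70 (adjusted p = 0.0933 from limma).

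RASD1, a Ras-like protein induced by glucocorticoids, had 7.47, 14.5 and 16.8 FPKM in M birds and 108, 165 and 42.1 FPKM in nM birds (difference -2.79, standard error 0.53), so that this gene and TSC22D3, both known for induction by glucocorticoids, lay in opposite directions. JAK2, the kinase below the growth hormone receptor and several cytokine receptors, had 1.28, 0.763 and 1.34 FPKM in M birds and 5.38, 3.72 and 5.98 FPKM in nM birds (difference -1.49, standard error 0.29). KDM1B, a histone demethylase, averaged 3.51 ± 1.62 FPKM in M birds and 14.3 ± 3.36 FPKM in nM birds (SD, n = 3 each; difference -1.81, standard error 0.36). In JAK2 and KDM1B alike M ZT5 was the lowest of the 6 libraries.

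MGP, matrix Gla protein, an inhibitor of calcification made by mesenchymal cells, had 0.868, 0.477 and 1.11 FPKM in M birds and 7.41, 3.12 and 6.95 FPKM in nM birds (difference -1.85, standard error 0.36). Of the 7 stellate and fibroblast markers, DES and PDGFRB were also lower without overlap, DES at 18.3, 16.6 and 21.9 FPKM in M birds against 31.7, 32.4 and 25.4 FPKM in nM birds, and RGS5 was listed at 0 in all 6. COL1A2, COL3A1, LUM and DCN overlapped between states, COL1A2 with 4.98, 8.92 and 10.7 FPKM in M birds and 4.27, 10.9 and 6.26 FPKM in nM birds. The part of such cells in the values of MGP and HAND2, which lay in opposite directions, was not tested. PLA2G1B, the phospholipase secreted by the pancreas, had 4.09 and 5.16 FPKM in M ZT1 and M ZT5, was listed at 0 in M ZT9, and had 114, 139 and 19.9 FPKM in nM birds. CPA1, a pancreatic carboxypeptidase and the marker of pancreas measured here, had 0.370, 0.583 and 1.51 FPKM in M birds and 6.07, 1.43 and 2.37 FPKM in nM birds, and its part in the values of PLA2G1B was not tested. C14orf159 and C1GALT1, which builds O-linked sugar chains, had differences of -2.44 and -2.09.

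**Figure D2:**
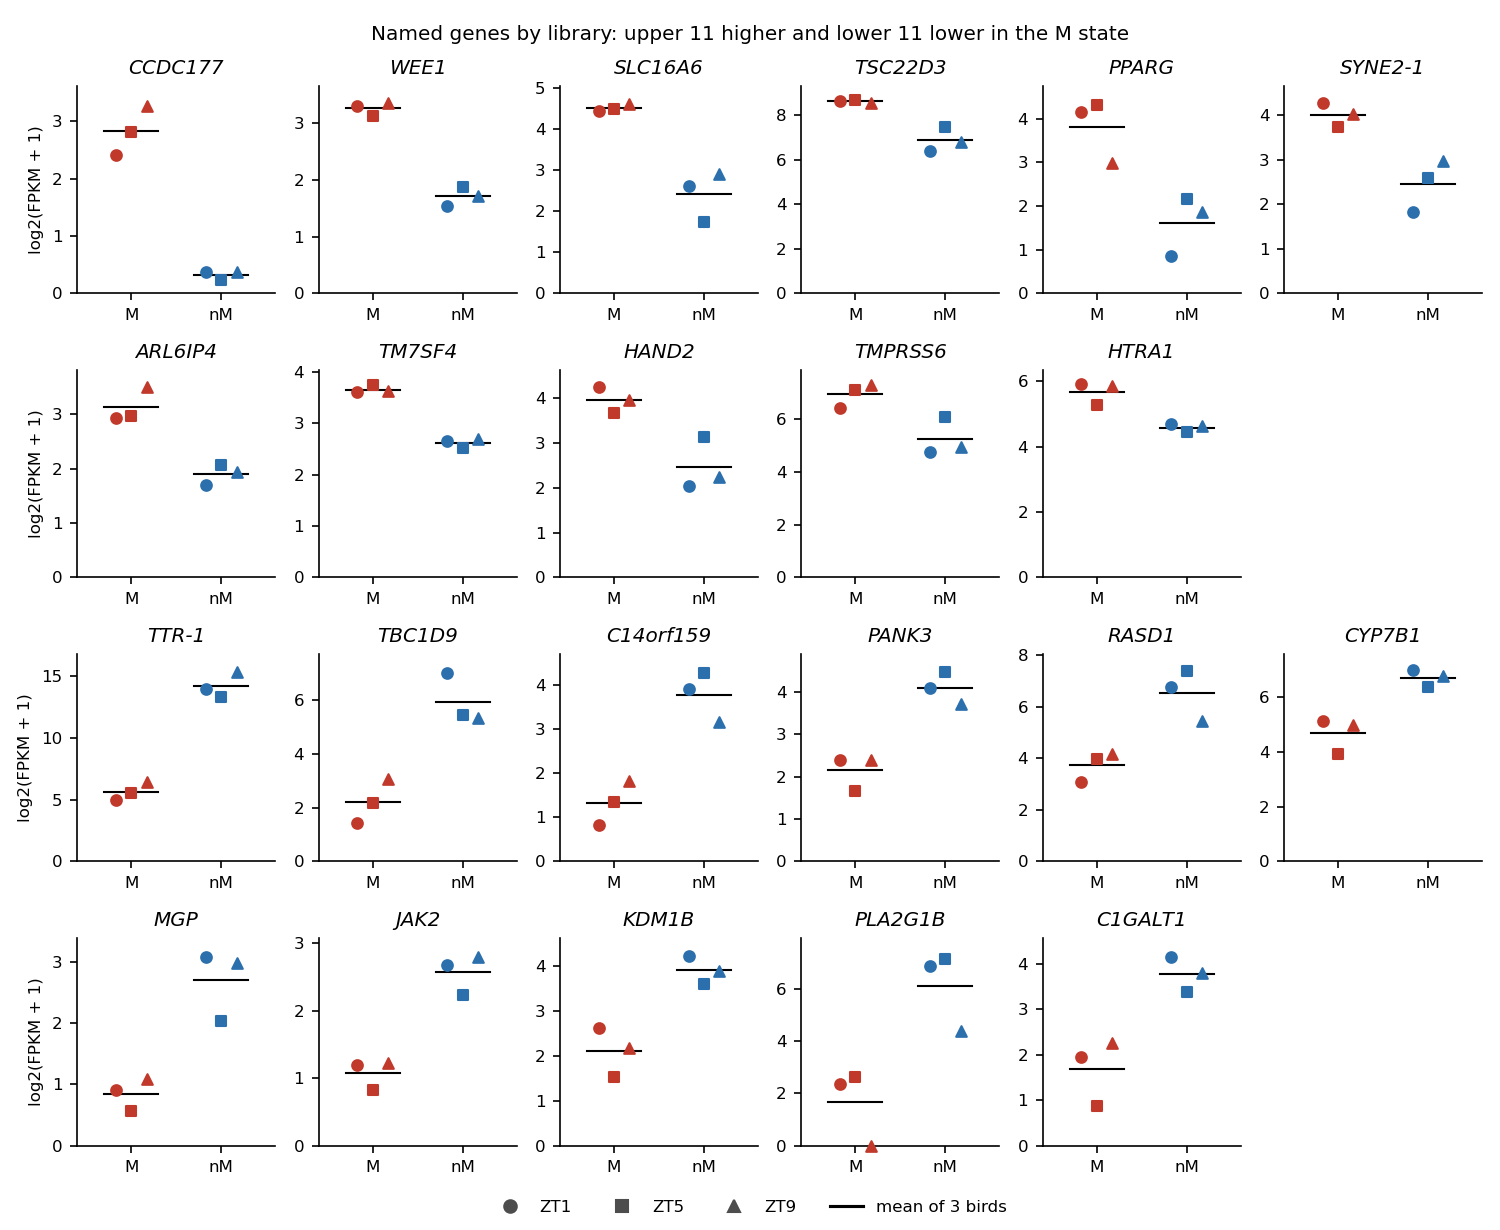
Expression as log2(FPKM + 1) on the y axes of 22 named genes, 11 that lay higher and 11 that lay lower in M birds, one panel per gene, with M birds on the left and nM birds on the right of the x axis, circles for ZT1, squares for ZT5, triangles for ZT9, and a line at the mean of 3 birds. In every panel the 3 M birds lie on one side of the 3 nM birds, and TTR-1 shows the widest gap, with a difference of -8.53.

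Leaving out M ZT1 and nM ZT5 changed the count of calls far more than leaving out any other pair. With 2 M birds (ZT5 and ZT9) against 2 nM birds (ZT1 and ZT9), limma called 179 of 9960 genes (1.8%), of which 138 (1.39%) were higher and 41 (0.412%) were lower in the M pair. The 8 other ways to leave out 1 M and 1 nM library gave between 0 and 2 calls. The 2 libraries were left out for their distance from their own state, so these calls are a description. All of these calls depended on the settings: with a pseudocount of 0.1 limma called 0 genes in the same 4 libraries, and ordinary regression called 1. The only one of the 179 that was also called in the 6 libraries was TTR-1. All 179 kept their direction in the 6 libraries, which include the 4 that gave the calls, so this was largely built in. The states stayed apart in only 29 of them, 6 of the 138 higher and 23 of the 41 lower. Over all genes tested 4.82% lay higher and 8.05% lower without overlap. The calls were picked on 4 of the same 6 libraries, so these shares are not a like base for them and no excess or lack is read from them.

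The libraries left out held different positions in the 138 genes called higher and in the 41 called lower, a difference that was not tested. On a log2 scale with 0 at the mean of nM ZT1 and nM ZT9 and 1 at the mean of M ZT5 and M ZT9, the higher genes had a median position of 0.314 in M ZT1 and 0.892 in nM ZT5. Thus nM ZT5 lay nearer to the M pair in 126 of the 138 genes, and M ZT1 nearer to the nM pair in 116. The 2 libraries were left out for lying toward the other state, so these positions largely restate that choice. Over all genes tested, on the line from the other state (0) to its own (1), M ZT1 stood at 0.307 and nM ZT5 at 0.156. In the 41 lower genes the median positions were 0.576 in M ZT1 and 0.445 in nM ZT5, and both libraries lay on the side of their own state in 12 genes.

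Examples from the 138 were chosen after their values were seen. RAD23B, which carries ubiquitinated proteins to the proteasome and acts in DNA repair, had 6.26, 111 and 57.0 FPKM in M birds and 0.921, 112 and 1.25 FPKM in nM birds. HNRNPA3, a nuclear ribonucleoprotein, had 42.3, 237 and 216 FPKM in M birds and 12.8, 160.1 and 17.8 FPKM in nM birds. ALAS1, the first enzyme of haem synthesis, had 4.66, 20.0 and 16.3 FPKM in M birds and 0.338, 10.4 and 1.25 FPKM in nM birds. In all 3 genes nM ZT5 lay far above the other nM birds, and M ZT1 was the lowest M bird and below nM ZT5. Without M ZT1 and nM ZT5 their differences were 5.28, 3.82 and 3.46, each with an adjusted p = 0.0582 from limma. Libraries and genes were chosen from these same values, so that p-value is no support for a difference. Over the 6 libraries the unadjusted p-values of the 3 genes from limma were 0.218, 0.0964 and 0.0453.

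At a pseudocount of 1, 29 of the 179 genes called without the 2 libraries also lay apart in all 6, where 12.9% of all genes tested lay apart. Only TTR-1 of the 29 was also called in the 6 libraries. Genes apart in all 6 libraries stay apart when some are left out, so that part was fixed in advance. Beside TTR-1, CYP7B1, TBC1D9, KDM1B, MGP, CCDC177, SLC16A6, TSC22D3 and TMPRSS6, the 29 included PIK3R1, the regulatory subunit of PI3-kinase, and ACOT9, a mitochondrial acyl-CoA thioesterase (named after their values were seen). PIK3R1 had 31.7, 8.39 and 15.6 FPKM in M birds and 94.8, 44.8 and 53.2 FPKM in nM birds (difference -1.85). ACOT9 had 10.3, 2.69 and 7.04 FPKM in M birds and 60.9, 16.2 and 47.4 FPKM in nM birds (difference -2.42). EGLN3, an oxygen-sensing prolyl hydroxylase, had 15.4, 4.41 and 3.35 FPKM in M birds and 21.9, 40.7 and 18.9 FPKM in nM birds (difference -1.87). Over the 6 libraries limma gave PIK3R1, ACOT9 and EGLN3 adjusted p-values of 0.606, 0.606 and 0.646. In these 3 genes M ZT1 was the highest M bird, and in ACOT9 and PIK3R1 nM ZT5 was the lowest nM bird. Of the 12 genes named above in each direction, only 4 of the higher and 5 of the lower were called without the 2 libraries. The rest did not pass there, with adjusted p-values from limma of up to 0.223 in the higher and 0.147 in the lower genes. Among these, PPARG, WEE1, JAK2 and PANK3 had differences of 2.29, 1.62, -1.72 and -1.86 without the 2 libraries, and limma gave them adjusted p-values of 0.145, 0.105, 0.105 and 0.120. Because their states did not overlap in the 6 libraries, their direction could not have changed.

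**Figure D3:**
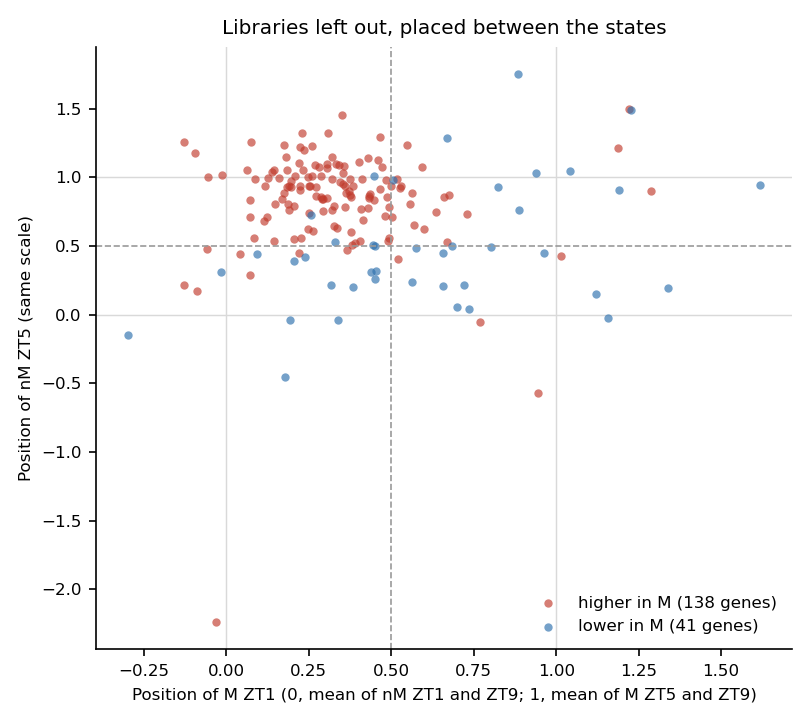
Position of M ZT1 (x axis) and nM ZT5 (y axis) in the 179 genes called without these 2 libraries, where 0 is the mean of nM ZT1 and nM ZT9 and 1 the mean of M ZT5 and M ZT9 on a log2 scale, with 138 genes higher in M in red and 41 lower in M in blue. Most red points lie at the upper left, with medians of 0.314 and 0.892, and the blue points spread around 0.576 and 0.445.

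The 24 gene lists were read by the members named in the study's list of cyclic genes, since that list was not picked on a difference between states. Many symbols written for a list were therefore not read. Of 79 written for cytosolic ribosomal proteins 19 were read, of 77 for the mitochondrial ribosome 20, and of 76 for the respiratory chain and ATP synthase 16. Counts and medians describe the members read and not a whole pathway. No tested member of any list was called, and TTR-1, the only gene called, is not among the members tested. Lists are described by how many members lay apart between states, against 4.82% higher and 8.05% lower over all genes tested, and by their median difference, against -0.05 over all genes tested. Over all tested genes of the cyclic list, which was made from these same libraries with the later ones, 5.64% lay higher and 8.77% lower, with a median of -0.04. List members beyond the 3 most abundant are named after their values were seen. Several members named below, among them INSR, PIK3CA, JAK2, IFNGR1, MET, EGFR, NCOA2 and CYP7B1, are also on the study's list of state differences, so their direction is not independent evidence. Without M ZT1 and nM ZT5 the median turned in 4 lists, to 0.20 in fatty acid and triglyceride synthesis, -0.11 in the proteasome, -0.18 in ubiquitin ligases and -0.11 in cell cycle and DNA replication. The members called in that fit included AKT1 (difference 2.86), AKR1D1 (3.07), SLC27A4 (2.23), ACAA1 (2.03), TIGAR (2.60) and GALK2 (2.11), all with overlapping states over the 6 libraries, and PIK3R1 and CYP7B1, which lay lower in both.

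Fatty acid uptake and activation had 8 members tested, of which 1 lay higher and 1 lower without overlap, with a median difference of 0.26. ACSL5, which activates long-chain fatty acids, had 521, 545 and 678 FPKM in M birds and 248, 471 and 464 FPKM in nM birds. VLDLR, a lipoprotein receptor, had 12.3, 19.4 and 19.5 FPKM in M birds and 28.3, 27.9 and 36.8 FPKM in nM birds. The most abundant members overlapped, such as hepatic lipase LIPC at 3199, 1642 and 1472 FPKM in M birds and 1946, 712 and 702 FPKM in nM birds. With equal totals no member of this list, of fatty acid synthesis or of fatty acid oxidation lay higher without overlap, and with equal medians 1, 1 and 3 members did, so these counts moved with the scale.

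Fatty acid and triglyceride synthesis had 14 members tested, 1 higher and 2 lower without overlap, and a median of -0.02. FASN, the fatty acid synthase, had 3864, 3139 and 1604 FPKM in M birds and 6507, 7221 and 4797 FPKM in nM birds (difference -1.18, standard error 0.39, adjusted p = 0.646 from limma). LPIN2, a phosphatidate phosphatase on the path to triglyceride, lay lower as well (difference -1.37), and ELOVL2, an elongase of polyunsaturated fatty acids, lay higher, with 95.1, 96.2 and 370.0 FPKM in M birds and 3.61, 66.2 and 74.2 FPKM in nM birds. The desaturase SCD and the lipogenic regulator THRSP overlapped between states, THRSP with 2891, 18531 and 4561 FPKM in M birds and 1787, 5511 and 4620.3 FPKM in nM birds. Genes of this pathway that carry a symbol only from the study's state differences are ELOVL1, LPIN1 and PPARG. Of all 231 such genes tested, 57.6% lay lower and 8.23% higher without overlap. The phosphatidate phosphatase LPIN1 had 12.0, 7.56 and 5.31 FPKM in M birds and 17.7, 47.7 and 28.7 FPKM in nM birds (difference -1.75, standard error 0.44). PPARG thus lay higher in the M birds by day while FASN, LPIN1 and LPIN2 lay lower, none past the FDR.

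Fatty acid oxidation and ketogenesis had 16 members tested, 1 higher and none lower without overlap, and a median of 0.18. The acyl-CoA dehydrogenases ACADL and ACADM had differences of 0.04 and 0.32 with overlap, and ACAA2, the last enzyme of the mitochondrial spiral, had 348, 436 and 396 FPKM in M birds and 262, 331 and 215 FPKM in nM birds. Glucose metabolism had 20 members tested, none apart in either direction, and a median of 0.13. GAPDH had 6632, 10390.4 and 8066 FPKM in M birds and 7439.5, 10766 and 8778 FPKM in nM birds. PCK1, which controls gluconeogenesis, varied more within each state, with 604, 149 and 2266 FPKM in M birds and 7662, 2216 and 426 FPKM in nM birds.

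Insulin, PI3-kinase and mTOR signaling had 17 members tested, of which none lay higher and 6 lay lower without overlap, with a median of -0.42. With equal totals 4 of the 17 lay lower, with equal medians 6, and none higher under either. The insulin receptor INSR had 16.97, 7.04 and 7.30 FPKM in M birds and 28.6, 20.3 and 19.1 FPKM in nM birds (difference -1.13, standard error 0.39). PIK3CA, a catalytic subunit of PI3-kinase, had 2.01, 1.25 and 1.49 FPKM in M birds and 7.78, 3.12 and 3.29 FPKM in nM birds (difference -1.07, standard error 0.36). EIF4EBP1, a repressor of translation below mTOR, and AKT1, the kinase below PI3-kinase, were among the most abundant members and overlapped, with differences of -0.43 and 1.44.

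In bile acid and cholesterol metabolism 1 of 16 members lay higher and 3 lower without overlap, with a median of -0.39, and with equal medians 1 member lay lower. ABCG8, one part of the sterol exporter into bile, had 134, 103 and 95.2 FPKM in M birds and 21.5, 77.9 and 38.4 FPKM in nM birds (difference 1.43). CYP7B1, described above, was the furthest of the 3 that lay lower. AKR1D1, a reductase common to both bile acid pathways, had 268, 662 and 461 FPKM in M birds and 62.7, 406 and 67.1 FPKM in nM birds, and HMGCS1 of cholesterol synthesis and CYP27A1 of the alternative bile acid pathway overlapped as well.

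Growth hormone, IGF, thyroid and steroid signaling had 16 members tested, none higher and 4 lower without overlap, with a median of -0.26. With equal totals 2 members lay lower and with equal medians 4. CISH, which is induced by and damps growth hormone signaling, had 17.4, 8.17 and 8.15 FPKM in M birds and 133, 272 and 29.8 FPKM in nM birds (difference -3.17, standard error 0.75, adjusted p = 0.606 from limma). SOCS2, another such damper, had a difference of -1.21 and JAK2 one of -1.49. The thyroid hormone receptor THRB has 2 IDs in the files, of which 1 lay lower without overlap (difference -1.05) and the other overlapped (-0.31). HSD11B1, which regenerates active glucocorticoid, overlapped between states, with a difference of 0.88.

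Cytokine, JAK-STAT and TGF-beta signaling had the lowest median of the 24 lists, -0.70 over 17 members, none higher and 4 lower without overlap (3 lower with equal totals). The median was -0.26 without nM ZT1. The interferon gamma receptor IFNGR1 had 31.2, 3.58 and 12.9 FPKM in M birds and 85.5, 45.1 and 41.2 FPKM in nM birds (difference -2.12, standard error 0.68), and SOCS1, a feedback inhibitor, had 9.14, 7.07 and 3.38 FPKM in M birds and 29.1, 14.8 and 17.3 FPKM in nM birds. The 3 most abundant members, IL1R1, IL4R and JAK1, overlapped. Growth factor receptors and MAPK signaling had 23 members tested, none higher and 7 lower, with a median of -0.35. This count was 2 with equal totals and 5 with equal medians. MET, the receptor of hepatocyte growth factor, had 3.21, 2.60 and 2.77 FPKM in M birds and 13.9, 7.41 and 8.51 FPKM in nM birds (difference -1.46, standard error 0.31). EGFR had 5.96, 1.96 and 1.80 FPKM in M birds and 28.8, 7.88 and 6.66 FPKM in nM birds (difference -1.71).

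Cytosolic ribosomal proteins had 19 members tested, 6 higher and none lower without overlap, with a median of 0.23. With equal totals 7 were higher and with equal medians 5, with none lower under either. RPL30 had 1330.1, 2336 and 1356 FPKM in M birds and 635, 997 and 638 FPKM in nM birds (difference 1.13, standard error 0.35). RPL37, the most abundant, had 1946, 4659.6 and 2620.5 FPKM in M birds and 844, 1942 and 803 FPKM in nM birds. RPS20 and RPS3 overlapped, with differences of -0.16 and -0.06, so not all members lay the same way. Without M ZT5 the median of the list was -0.14, and without nM ZT5 it was 0.51. Ribosomal protein genes can have near-identical copies, and how reads were split among them was not tested, so these values are uncertain.

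The mitochondrial ribosome had 2 of 20 members higher without overlap, and the respiratory chain and ATP synthase 1 of 16 lower. The proteasome had 1 of 21 higher, splicing factors 2 of 17 higher and 1 lower, and ubiquitin ligases 2 of 21 higher and 5 lower (1 and 1 with equal totals, 3 and 3 with equal medians). Histone methylation and acetylation had 3 of 15 lower. The repressor of neuronal genes REST and its partner RCOR1 carry symbols only from the state differences and belong to the same list, with differences of -2.41 and -1.89 without overlap. Lying lower is usual for such genes: 57.6% of the 231 tested lay lower without overlap. Secreted plasma proteins had 2 of 15 lower, among them vitronectin VTN at 2028, 3324 and 2675 FPKM in M birds and 5317, 5079.6 and 4142 FPKM in nM birds. The plasma protein median of -0.43 was 0.24 without nM ZT1. The median differences of fatty acid and triglyceride synthesis, histone methylation and acetylation, heat shock and ER folding, amino acid and urate metabolism, and autophagy were between -0.14 and -0.02 and changed sign with equal totals, and the first 2 and autophagy also with equal medians.

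**Figure D4:**
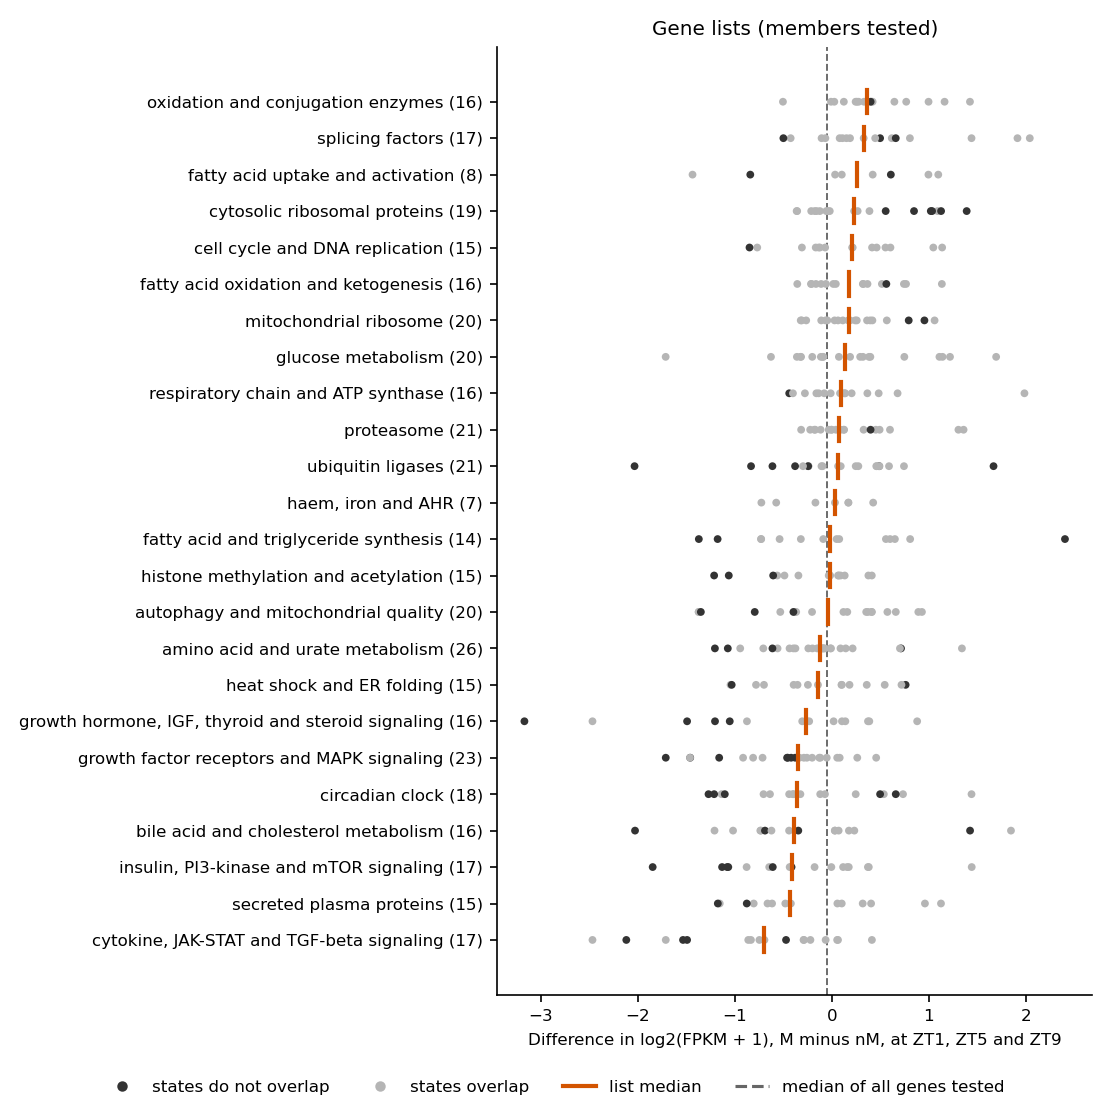
Difference in log2(FPKM + 1), M minus nM (x axis), of each tested member of 24 gene lists (y axis, number of members in parentheses), black where the states did not overlap and grey where they did, with the list median in orange and the median of all genes tested, -0.05, as a dashed line. List medians run from -0.70 for cytokine, JAK-STAT and TGF-beta signaling to 0.37 for oxidation and conjugation enzymes.

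Clock genes gave a check on the times of day. NR1D2, a repressor of the clock, was at 58.6, 13.2 and 4.01 FPKM in M birds and at 56.4, 29.9 and 7.95 FPKM in nM birds, lowest at ZT9 in both states. PER3, of the negative limb, was at 19.4, 5.77 and 1.35 FPKM in M birds and at 25.7, 15.3 and 6.95 FPKM in nM birds, in the same order of times. CRY1, also of the negative limb, was at 15.3, 53.9 and 65.4 FPKM in M birds and at 16.5, 57.0 and 74.5 FPKM in nM birds, highest at ZT9 in both. The order of the 3 times was shared between the states in these genes, but not in all clock genes.

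PER2 was at 6.64, 8.58 and 5.32 FPKM in M birds and at 13.9, 28.9 and 13.6 FPKM in nM birds, highest at ZT5 in both states and lower in the M bird at each time, with a difference of -1.27. CRY2 varied little, at 28.5, 31.1 and 25.4 FPKM in M birds and 25.8, 29.9 and 34.0 FPKM in nM birds. TEF, an activator of clock-controlled genes, was at 44.0, 26.02 and 12.5 FPKM in M birds and 56.5, 22.3 and 27.1 FPKM in nM birds. BHLHE40, a repressor, was at 31.9, 21.4 and 14.3 FPKM in M birds and 80.5, 12.2 and 19.6 FPKM in nM birds. Both were highest at ZT1 in either state and lowest at ZT9 in M birds but at ZT5 in nM birds. The order also differed between states in CRY2 and NPAS2, and NPAS2, of the positive limb, did not exceed 2.52 FPKM in any of the 6 libraries. ARNTL, CLOCK and NR1D1 were not among the annotated genes tested. Of 18 clock genes tested, 2 lay higher without overlap (NONO and HNRNPU, RNA-binding proteins that also stand in the splicing list) and 3 lower (PER2, NFIL3 and the coactivator NCOA2). The median of the list was -0.36, and -0.02 without M ZT9.

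The birds of ZT13, ZT17 and ZT21 are other individuals, and the same difference was computed in them. Lights were still on at ZT13 and were off at ZT17 and ZT21, so this set is not a night set, and "by day" here means ZT1 to ZT9. Of the 480 genes higher by day without overlap, 322 (67.1%) were also higher in the M state at these later times, against 45.0% of all genes tested, and 135 (28.1%) again lay apart in that direction, against 13.8% of all. Of the 802 lower genes, 699 (87.2%) were lower at the later times, against 55.0% of all genes, and 452 (56.4%) lay apart, against 22.0%. M ZT17 had a summed FPKM of 6988410, against 1520194 to 2793013 in the other 11 libraries of the series. Without it 174 of the 480 (36.2%) and 480 of the 802 (59.9%) lay apart in the same direction, against 17.9% and 25.9% of all genes. The genes called without M ZT1 and nM ZT5 also kept their direction in the later birds, 131 of 138 higher and 38 of 41 lower, and 107 and 29 of them lay apart there. No test was attached to these shares, since genes vary together.

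Whether a state difference itself differed between ZT1 to ZT9 and ZT13 to ZT21 was tested as an interaction. The limma interaction called 0 of 9566 genes, with 434 (4.54%) at an unadjusted p under 0.05, so no difference above was shown to be particular to ZT1 to ZT9. TTR-1 was at 23.5, 145 and 113 FPKM in M birds at ZT13, ZT17 and ZT21 and at 12643, 11403 and 13825 FPKM in nM birds, a difference of -7.41 (interaction adjusted p = 0.725 from limma). CCDC177 differed by 2.50 by day and 2.48 later, or 2.17 later without M ZT17. CYP7B1 differed by -2.03 by day and -3.66 later, or -2.81 later without M ZT17. SLC16A6 had a difference of 2.11 by day and -0.13 later, TSC22D3 1.75 and 0.21, WEE1 1.56 and 0.29, and PLA2G1B -4.46 and -0.04. Without M ZT17 the later values of SLC16A6, TSC22D3, WEE1 and PLA2G1B were 0.32, -0.08, 0.90 and -0.85. In limma's interaction these 4 genes had unadjusted p-values of 0.00503, 0.0409, 0.204 and 0.00803 and an adjusted p of 0.722 each, so a difference between the times was not shown. PPARG, at 5.28, 13.1 and 7.06 FPKM in M birds and 5.63, 3.05 and 5.27 FPKM in nM birds at the later times, overlapped between states there, with a difference of 0.70, and of 0.37 without M ZT17.

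**Figure D5:**
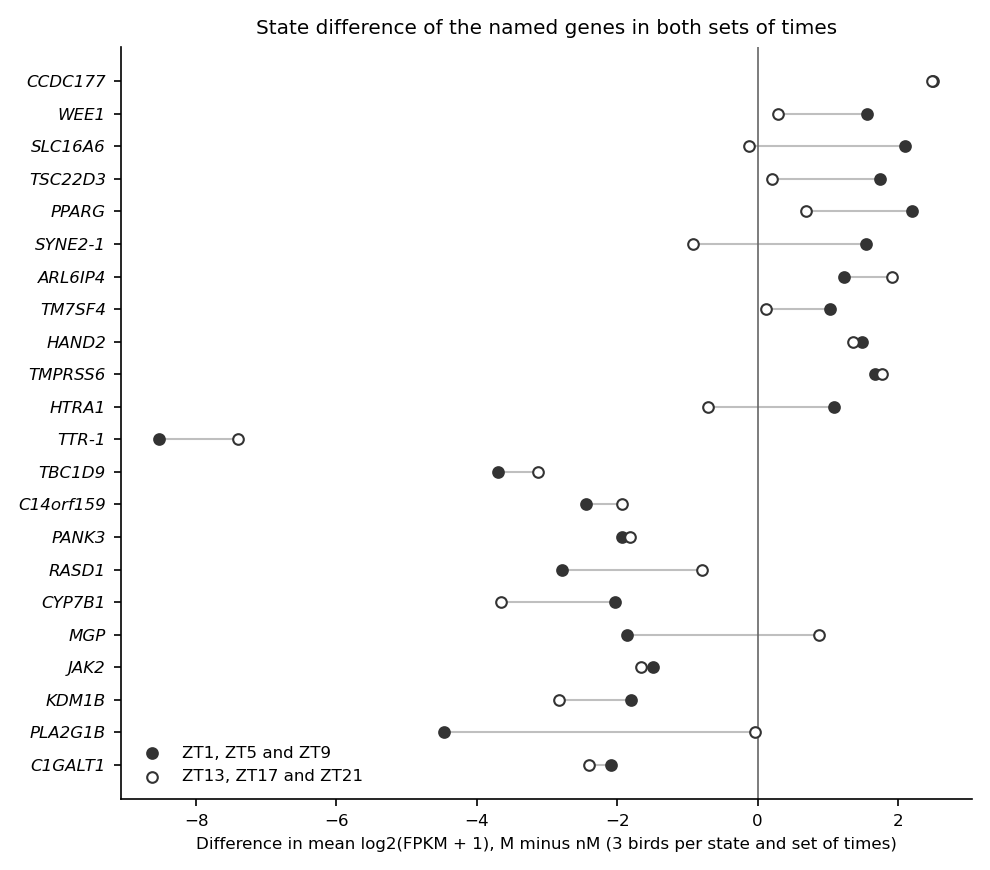
Difference in mean log2(FPKM + 1), M minus nM (x axis), of the 22 named genes (y axis) at ZT1, ZT5 and ZT9 (filled) and at ZT13, ZT17 and ZT21 (open), from 3 birds per state in each set of times. CCDC177, TMPRSS6, PANK3 and JAK2 have nearly equal differences in both sets as drawn. Their later differences without M ZT17 were 2.17, 1.49, -1.55 and -1.49. SLC16A6, SYNE2-1, HTRA1 and MGP change sign, of which SLC16A6 (0.32) and MGP (-0.16) do not without M ZT17.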

How the data were processed

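Liver poly-A RNA of 12 birds was sequenced as single-end reads, with extraction in 1 batch and a single lane. The authors trimmed the reads, removed ribosomal RNA with Bowtie2 2.0.2, used STAR for alignment to zebra finch and Cufflinks 2.2.1 for the expression values, FPKM of each gene. The deposited FPKM table (18284 genes) was used without further scaling. A deposited log2 table holds the same FPKM values on the log2 scale for fewer genes and was not used. Mapping went to another species, and its effect on single genes was not tested. The deposited files give no read depth and whole reads could not be recovered from the FPKM values, so no counting error is given. The study's sequencing summary lists unequal read numbers, with the most reads in nM ZT5 and the fewest in nM ZT9 of the 6 libraries used, and a lower share of high-quality bases in M ZT9, and the part of these in the results was not tested.

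A gene was tested if its FPKM was above 0.1 in 5 or more of the 6 libraries of ZT1, ZT5 and ZT9. States were compared on log2(FPKM + 1) with limma 3.58.1 in R 4.3.3 (two-sided, Benjamini-Hochberg adjustment over all 9960 genes, called at FDR below 0.1 and an absolute difference above 0.1), 3 birds per state. On this scale the change of low genes is understated. Whether states overlap was read from the single birds. The times were taken as replicates of a state, as the study did, so the spread includes time of day, and 1 bird stands behind each value. The interaction of state with the set of times was fitted on all 12 libraries and 9566 genes with FPKM above 0.1 in at least 10. In simulated data on 9960 genes with 3 against 3 libraries, the test recovered 12.0% of genes changed by 1 on the log2 scale, 58.0% of those changed by 2, 96.0% by 4 and 100.0% by 8. The simulation changed 50 genes at each size and drew noise independently for each library, so it may overstate recovery here.

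Symbols were taken from the study's lists of state differences and cyclic genes and cover 4167 of the genes tested. Named genes were, per direction, the 12 with a symbol and without overlap, called genes by size first and then by smallest unadjusted p, the 5 of smallest adjusted p with a state mean of 10 FPKM or more, called members of 24 gene lists or else their 3 most abundant members, TTR-1, and 11 clock genes. Some of the genes that this rule names are not reported here. The comparison, lists and rules were chosen with earlier results of these data known. Scaling, filters, pseudocount, variance model, a block for time of day, all 12 libraries, and libraries left out were tried as alternatives. The authors' fold changes and p-values were not used. No sequences are given, since none were in the sources used here.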

Additional observations from a re-analysis of the deposited data

Results flagged for a closer look

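In 3 named genes the M bird lay above the nM bird at each of ZT1, ZT5 and ZT9 and below it at each of ZT13, ZT17 and ZT21. SYNE2-1, of the nuclear envelope, had a difference of 1.54 by day, with 18.4, 12.4 and 15.3 FPKM in M birds and 2.56, 5.06 and 6.88 FPKM in nM birds, and of -0.92 at the later times, with 11.01, 1.90 and 11.8 FPKM in M birds and 16.4, 12.2 and 12.2 FPKM in nM birds. HTRA1, a secreted protease, had 1.09 by day and -0.71 later, with 55.8, 124 and 54.4 FPKM in M birds and 86.8, 199 and 96.7 FPKM in nM birds at ZT13, ZT17 and ZT21. NPAS2, of the clock's positive limb, had 0.54 by day, with the M bird higher at each time, and -1.47 later, with 7.63, 4.63 and 1.75 FPKM in M birds and 21.3, 39.9 and 2.11 FPKM in nM birds. Limma's interaction gave these 3 genes unadjusted p-values of 0.00625, 0.0101 and 0.0975 and an adjusted p of 0.722 each, so the opposite directions did not pass. Without M ZT17, which stands apart in summed FPKM, the later differences of SYNE2-1, HTRA1 and NPAS2 were -0.22, -1.09 and -1.54. The mean difference alone changed sign in SLC16A6, MGP, BHLHE40 and PER3.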

How the results depend on the processing

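The count of 1 gene differing between states by day was 2 with a pseudocount of 0.1, 2 with FPKM above 1 in all 6 libraries, 3 with an intensity trend, 2 with all 12 libraries, 0 with no filter on low values and 0 with ordinary regression. With 1 library left out it was 1 to 3 (3 without the M bird of ZT9). Without both M ZT1 and nM ZT5 it was 179, and without each of the 8 other such pairs, which were added later, 0 to 2. The interaction count of 0 was 0 to 1 with 1 library left out, 1 without the M bird of ZT21 or the nM bird of ZT5. The 179 calls became 0 with a pseudocount of 0.1, 1 with ordinary regression, 445 with FPKM above 1 in all 6 libraries and 533 with equal totals, settings that were all added after the data had been seen. The causes were not tested. With time of day as a replicate block, 4 genes passed, 1 higher and 3 lower. Deviations of same-time birds from their state means correlated at 0.32, 0.39 and 0.09 at ZT1, ZT5 and ZT9, and different-time pairs at -0.41 to 0.11. Because the value at ZT9 was not above 0.1, the time label was not taken as a pairing of birds, although the pairs of ZT1 and ZT5 were the highest of the 9, and nM ZT9 correlated best with M ZT1. Differences of NR1D2, BHLHE40, TEF, CRY1, CRY2 and PER3 changed sign under at least 1 alternative each and carry no direction. In 12 of 24 lists the median changed sign when 1 library was left out. With 3 birds a state, a gene changed by 2 on the log2 scale had 58.0% recovery in simulated data, which may overstate recovery here. In these libraries PLA2G1B and TBC1D9, with differences of -4.46 and -3.70, were not called, and TTR-1, at -8.53, was. Smaller differences would often be missed.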

Other observations

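At single times the gene lists differed in their medians, with 1 bird per state behind each value. Secreted plasma proteins had a median difference of -1.39 at ZT1, 0.18 at ZT5 and 0.08 at ZT9. At ZT1 the nM bird had 42162 FPKM of the fibrinogen chain FGG, against 5981 FPKM in the M bird. Ferritin FTH1, which stores iron inside cells, had 40814 FPKM in the same nM bird and 17097 FPKM in the M bird. Cytosolic ribosomal proteins had medians of -0.13, 0.60 and 0.25 and the mitochondrial ribosome -0.43, 0.68 and 0.19 at the same times. At ZT13 to ZT21 their medians were 1.62 and 0.99, and that of the respiratory chain and ATP synthase was 1.13, against -0.12 over all genes tested. Without M ZT17 these later medians were 0.66, 0.33 and 0.28, against -0.09. Fatty acid oxidation and ketogenesis had a median of 0.18 at ZT1 to ZT9 and -0.41 later, or -0.26 without M ZT17. Over all genes tested the median was -0.20 at ZT1, 0.07 at ZT5 and -0.03 at ZT9. These differences between times were not tested.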
